A study of Mus musculus with 16 samples.

Results

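The 10 genes described here encode 8 annexins (Anxa1, Anxa2, Anxa3, Anxa4, Anxa5, Anxa6, Anxa7 and Anxa11) and the S100 proteins that bind annexins A2 and A1 (S100a10 and S100a11). They were picked by gene name out of 35275 genes in a table of mRNA levels, and all 10 were abundant enough to be tested. The cells were C2C12, an established mouse myoblast line that stops dividing and fuses into myotubes when serum is lowered, and the labels call them PAX7 negative. Control cells were wild type and came from 2 populations. Knockout cells (tKO) lacked 3 microRNA genes, the 2 copies of miR-1a (miR-1a-1, miR-1a-2) together with miR-206, and came from 2 clones. Each population and clone was sampled as growing myoblasts in medium with fetal bovine serum (GM) and as myotubes after 3 days in horse serum (DM3), with 2 cultures each, so that each genotype had 4 libraries per stage. Since the knockout is represented by 2 clones, what is particular to a clone and what belongs to the deletion cannot be told apart beyond that number. The labels do not say that cultures of 1 clone were independent, and the p-values measure only the spread between these libraries.

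Annexins are calcium-dependent proteins that bind acidic phospholipids, and they gather at membranes when cytosolic calcium rises. S100 proteins are small EF-hand dimers that can bridge 2 annexin molecules. S100A10 with annexin A2, and S100A11 with annexin A1, form complexes that link membranes and take part in vesicle traffic. The complex of annexin A2 and S100A10 also assembles plasminogen with its activators at the cell surface. In skeletal muscle, annexins A1, A2, A5 and A6 are known for sealing tears in the plasma membrane together with dysferlin. miR-206 and the miR-1a microRNAs are muscle microRNAs that rise as myoblasts differentiate and share a seed, and Anxa2 is a reported target of this family.

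The sequences are shown because Anxa2 was the one gene of the 10 to pass the test between genotypes. The mature miR-206-3p (RefSeq, GRCm38.p6, chr1:20679055-20679076, plus strand) is given first, with its seed (bases 2 to 8) in capitals. The site matched by this seed was searched on the sense strand of the longest annotated 3′ UTR of each gene (GENCODE M21, GRCm38). The full match reads ACATTCCA. A match that lacks its last base reads ACATTCC, one that lacks only the first base reads CATTCCA, and one that lacks both of those reads CATTCC, so every shorter form lies inside the full one. Anxa2 held ACATTCCA, at base 196 of a 3′ UTR of 290 bases. Anxa4 and Anxa5 held ACATTCC without the last A, Anxa1 held CATTCC, and the other 6 genes held none of the 4. The capitals mark the matched bases.
miR-206-3p: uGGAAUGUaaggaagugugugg
Anxa2 (chr9:69491683-69491712, plus strand): tttatgccaaagaagtgaACATTCCAggga
Anxa4 (chr6:86737102-86737131, minus strand): cggtcgttcctcgtgctgaACATTCCtcag
Anxa5 (chr3:36448931-36448960, minus strand): acattggcgacaaataaaaACATTCCcttc
Anxa1 (chr19:20373472-20373501, minus strand): taagcaagtcactttggtacCATTCCtgag

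ACATTCCA occurred in 513 of the 10808 tested genes with an annotated 3′ UTR (4.75%). The form without the last base occurred in 12.27% of them, the form without the first base in 13.79%, and the form without either in 35.21%. A match describes these letters and is not evidence of a working site.

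Library depth ran from 22642563 to 56585952 fragments, and each of the 10 genes was represented by 424 to 39085 fragments in every library. The deleted microRNAs were not analysed here. The host gene of Mir206 had 59 to 608 fragments in control DM3, 14 to 152 in tKO DM3, 0 to 4 in control GM and 0 in tKO GM, so the ranges overlapped in DM3. Summed over 7 myotube genes (Myog, Ckm, Myh3, Acta1, Actn2, Tmem8c and Tnnt3), the level was 7.73 to 72.5 FPKM in GM and 237 to 971 FPKM in DM3. Culture 2 of the clones stood apart at both stages, with the 2 highest sums of the GM libraries and the 2 lowest of the DM3 libraries. Acta1 was the largest part of these sums in every group. Its means were 8.48 FPKM in control GM, 31.3 in tKO GM, 457 in control DM3 and 404 in tKO DM3. FPKM is the number of fragments per kilobase of gene, scaled to the library's total. Summed over 5 myoblast genes (Myf5, Myod1, Des, Cdh15 and Vcam1), it was 62.4 to 115 FPKM in GM and 166 to 514 FPKM in DM3, with Myod1 alone listed at 0 in all 4 control GM libraries. Des was the largest part of this sum in controls, with means of 39.5 FPKM in GM and 339 in DM3. In tKO cells Des had 22.1 and 175 FPKM. Of the 5, Cdh15 alone passed the test between genotypes, higher in tKO GM (1.47, limma, adjusted p = 0.000589). Pax7 reached at most 0.0237 FPKM. Of the genes of other cell types, summed macrophage genes reached at most 4.08 FPKM, adipocyte genes 15.2 and endothelial genes 0.435.

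The 10 genes covered a wide range of mRNA levels, and most stood near the top of the table. In control GM, S100a11 had a mean of 949 ± 128 FPKM (SD, n = 4), which ranked 50 among the 11832 tested genes. S100a10 followed at 573 ± 30.3, Anxa2 at 501 ± 43.1, Anxa1 at 378 ± 46.7 and Anxa3 at 284 ± 19.3. Anxa5 stood at 213 ± 6.15, Anxa6 at 158 ± 12.8, Anxa4 at 75.8 ± 6.53, Anxa7 at 40.7 ± 1.07 and Anxa11 at 6.74 ± 0.921 FPKM. Every neighbouring pair in this order was separate in all 4 libraries except S100a10 and Anxa2, whose ranges met (535 to 602 and 446 to 551 FPKM). In control DM3, Anxa6 (280 ± 25.7) stood above Anxa2 (241 ± 14.2), and Anxa3 (71.2 ± 3.09) overlapped Anxa4 (73.0 ± 4.42). These orders depend on the gene length behind FPKM, which for Anxa2, Anxa4 and Anxa11 is that of a transcript other than the longest coding one. At the coding length, a scale chosen after seeing the data, Anxa2 had 789 ± 67.8 FPKM in control GM, above S100a10 in every library and overlapping S100a11 (703 to 868 against 770 to 1040), and 380 ± 22.4 in control DM3, above Anxa6. Anxa4 then had 94.3 ± 5.72 FPKM in control DM3 (88.7 to 102), above Anxa3 in every library.

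**Figure D1:**
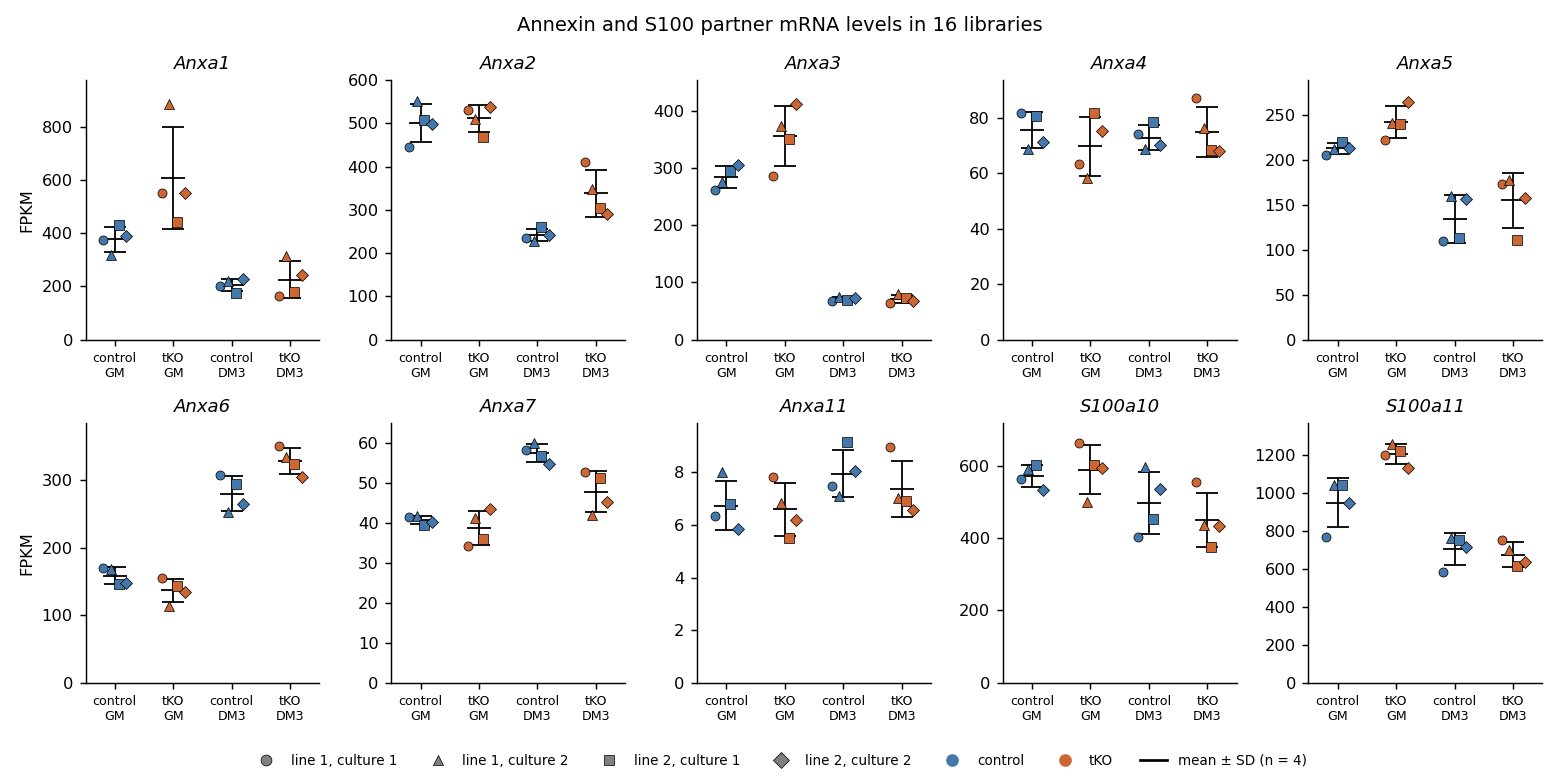
mRNA level (FPKM, linear axes from 0) of each of the 10 genes in 16 libraries, in 4 groups. Shapes give the population or clone (line) and culture, colours the genotype, and bars the mean ± SD of 4 libraries; Anxa3 falls to 64.1 to 78.8 FPKM in all 8 DM3 libraries, and Anxa2 is the gene whose tKO DM3 libraries all lie above its control DM3 libraries.

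Whether loss of the microRNAs changed these genes was asked first in myotubes. Anxa2 mRNA was higher in tKO than in control cells after 3 days of differentiation, and no other gene of the 10 passed the test there. In control DM3, Anxa2 stood at 235 and 228 FPKM in population 1 (cultures 1 and 2) and at 261 and 242 FPKM in population 2. In tKO DM3 it stood at 412 and 347 FPKM in clone 1 and at 304 and 289 FPKM in clone 2. All 4 tKO libraries lay above all 4 control libraries, and both libraries of clone 1 were above both of clone 2. The ratio of means was 1.40 (338 ± 54.9 against 241 ± 14.2 FPKM), and the difference on the log2(FPKM + 1) scale was 0.47 with a standard error of 0.12 (limma, adjusted p = 0.0312, 4 against 4 libraries). It was 0.51 within culture 1 and 0.43 within culture 2, with no overlap of the genotypes in either culture.

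Over all genes, 2.02% (239 of 11832) were higher in tKO DM3, and 1 of these 10 was. The call for Anxa2 was not stable. It held in 21 of 31 other settings and was lost in 10, while the difference stayed between 0.30 and 0.65 in all 31. Among these are fits that cannot move the difference (0.47), such as those without a GM library or with another filter or moderation. Its range thus comes from the other settings. With median-of-ratios scaling the adjusted p was 0.0887, with only the 8 DM3 libraries 0.161, and with the mean of each population or clone as the unit 0.15. Without clone 1 the difference was 0.30 (adjusted p = 0.158), and without clone 2 it was 0.65 and passed. Without control population 1 the adjusted p was 0.587, and without population 2 it was 0.27. The call was also lost without culture 1 of control population 1 (0.0867), culture 2 of population 1 (0.102), culture 2 of population 2 (0.0636) or culture 2 of clone 1 (0.0867), all in DM3.

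**Figure D2:**
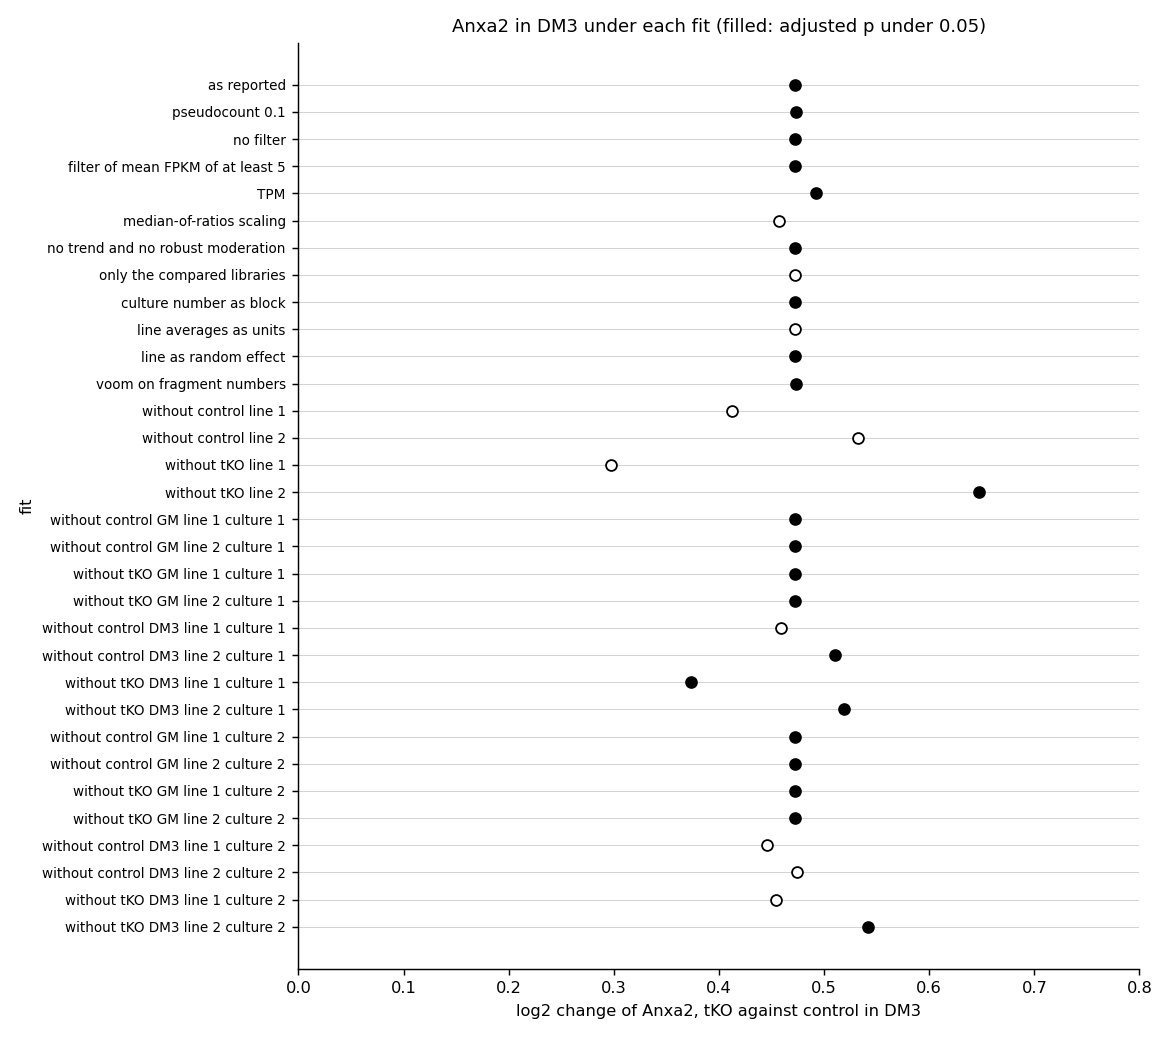
Difference of Anxa2 between tKO and control in DM3 (log2 of FPKM + 1, or of the scale named) as reported and under 31 other settings, 1 per line. Filled points passed an adjusted p of 0.05 (limma) and open points did not; all lie between 0.30 and 0.65, lowest without clone 1 (tKO line 1) and highest without clone 2.

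The 4 tKO DM3 libraries were not alike in their summed myotube level, of which Acta1 was the largest part (115 to 682 FPKM). The summed myotube level was 942 and 971 FPKM in culture 1 of clones 1 and 2, and 237 and 312 FPKM in culture 2. In control DM3 it was 774 and 550 FPKM in culture 1, and 971 and 625 FPKM in culture 2. None of the 6 tested myotube genes passed the test between genotypes in DM3. The nearest were Myh3, higher in tKO (1.47, limma, adjusted p = 0.0511), and Tnnt3, lower in tKO (-0.99, adjusted p = 0.061). The difference of Anxa2 within each culture is given above. Summed over 5 fibroblast genes (Pdgfra, Thy1, Dpt, Dcn and Lum), the level in DM3 was 29.2 to 38.3 FPKM for controls but 7.04 to 18.6 FPKM for the clones. Most of this sum was Dcn, with means of 30.1 FPKM in controls and 9.50 in the clones (-1.65, limma, adjusted p = 0.0145). Dcn also rose with differentiation, from 2.18 FPKM in control GM and 1.72 in tKO GM (3.33 and 2.04, adjusted p = 7.62e-07 and 0.000102). Pdgfra (3.39 and 1.61) and Thy1 (0.05 and 0.03) were also lower in the clones, while Dpt (0.59 and 0.88) and Lum (0.03 and 0.15) were higher. The part of these differences in the result for Anxa2 was not tested. In bulk RNA, fewer cells of a type and less RNA per cell cannot be told apart.

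In growing myoblasts Anxa2 showed no such difference. It stood at 446 and 551 FPKM in control population 1, 508 and 498 in population 2, 530 and 510 in clone 1, and 468 and 537 in clone 2. The control and tKO ranges overlapped almost fully, with a difference of 0.03 ± 0.12 (log2, SE; limma, adjusted p = 0.92). With TPM in place of FPKM the difference was -0.02. The test of whether the genotype difference changed with stage (the interaction) gave 0.44 ± 0.16 and did not pass (adjusted p = 0.324), so the difference in DM3 is not shown to exceed that in GM.

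S100a10, the partner of annexin A2 and an S100 protein that does not bind calcium, did not follow Anxa2. In control DM3 it stood at 403 and 597 FPKM in population 1 and at 454 and 536 FPKM in population 2. In tKO DM3 it stood at 556 and 438 FPKM in clone 1 and at 375 and 433 FPKM in clone 2. The genotypes overlapped, with a difference of -0.14 ± 0.14 (log2, SE; limma, adjusted p = 0.66). Within culture 1 the difference was 0.09, with overlap. Within culture 2 it was -0.38, and there the tKO libraries lay below the controls. In GM the levels were 535 to 602 FPKM in controls and 499 to 664 FPKM in tKO cells (difference 0.04, adjusted p = 0.931).

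The ratio of Anxa2 to S100a10 within each library is described without a test, since it restates these values, and its size scales with the gene lengths used. Among growing cells it was 0.874 ± 0.069 (SD, n = 4) for controls and 0.876 ± 0.112 for the clones. Among myotubes it was 0.497 ± 0.0974 for controls (0.382 to 0.582), and 0.753 ± 0.0634 for the clones (0.669 to 0.81). The 4 control DM3 libraries thus had the lowest ratios of the 16, and tKO DM3 lay between them and the means of the GM groups.

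**Figure D3:**
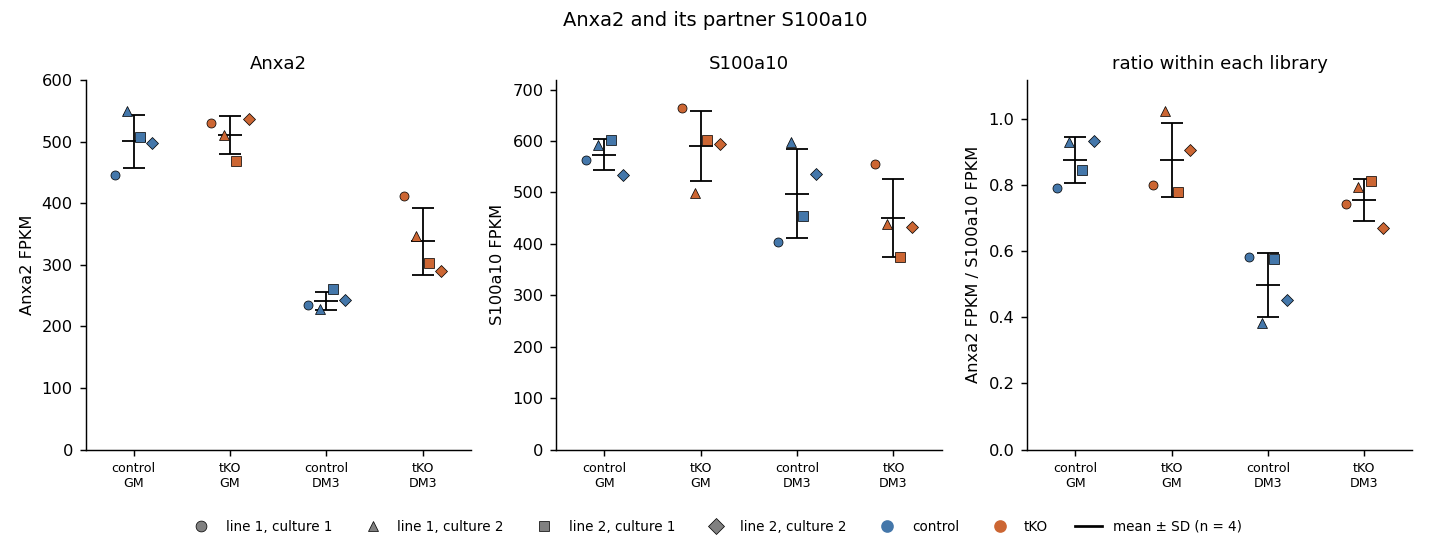
Anxa2 level, S100a10 level (both FPKM) and their ratio within each library, by group, on linear axes from 0. Points are libraries, marked by line and culture, and bars are mean ± SD (n = 4); the ratio is 0.382 to 0.582 in control DM3 and 0.669 or more in every other library.

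In GM, none of the 10 genes passed the test between genotypes, against 2.06% of all genes in either direction. Voom on the fragment numbers also called 0, and 3 of the 10 had an unadjusted p under 0.05 with limma (2076 of 11832 genes did). Anxa1, Anxa5 and S100a11 were higher in tKO GM with no overlap between the genotypes, which was so for 5.38% of all genes. The median difference of the 10 was 0.03, and that of all tested genes was -0.01.

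Anxa1, an inhibitor of phospholipase A2 signalling and a ligand of formyl peptide receptors when secreted, had the widest spread in tKO GM. It stood at 376 and 318 FPKM in control population 1, 431 and 388 in population 2, 551 and 887 in clone 1, and 444 and 551 in clone 2. The ratio of means was 1.61, and the difference was 0.64 ± 0.21 (log2, SE; limma, adjusted p = 0.125). It passed when clone 2 was left out (0.89, adjusted p = 0.0359) or when only its culture 1 was (0.78, adjusted p = 0.0438). Within culture 1 the difference was 0.30 and within culture 2 it was 0.99. Culture 2 of both clones in GM also stood apart in the summed myotube level, mostly Acta1, at 72.5 FPKM in clone 1 and 26.3 in clone 2. The other GM libraries had 7.73 to 18.4 FPKM, and the part of this in the result was not tested. Without culture 2 of clone 1 the difference was 0.45 (adjusted p = 0.395). In DM3 the control libraries stood at 177 to 227 FPKM and the tKO libraries at 163 to 317 FPKM (difference 0.08, adjusted p = 0.886).

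S100a11, its calcium-binding partner, stood at 770 and 1043 FPKM in control population 1, 1040 and 945 in population 2, 1199 and 1258 in clone 1, and 1223 and 1133 in clone 2, all in GM. Each tKO GM library was above each control GM library, yet the difference of 0.35 ± 0.12 did not pass (log2, SE; limma, adjusted p = 0.147). In DM3 the ranges were 583 to 765 FPKM in controls and 613 to 753 FPKM in tKO cells, with a difference of -0.06 (adjusted p = 0.872). The ratio of Anxa1 to S100a11 was 0.404 ± 0.0754 (SD, n = 4) for controls and 0.504 ± 0.144 for the clones in GM, and 0.296 ± 0.0468 and 0.335 ± 0.103 after differentiation.

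Of the other annexins, Anxa7 (synexin, known for its part in membrane fusion) came nearest to a difference in DM3. It stood at 58.3 and 60.0 FPKM in control population 1, 56.8 and 54.6 in population 2, 52.8 and 41.9 in clone 1, and 51.1 and 45.1 in clone 2. All 4 tKO libraries were below all 4 controls, with a difference of -0.27 ± 0.10 (log2, SE; limma, adjusted p = 0.166). Anxa2 and Anxa7 were therefore the 2 genes of the 10 whose genotypes did not overlap in DM3, in opposite directions, while 8.52% of all genes did not overlap. Anxa5, a phosphatidylserine binder, differed by 0.20 (adjusted p = 0.542), and Anxa6, which carries a doubled annexin core, by 0.23 (adjusted p = 0.301). Anxa4, which holds an ACATTCC as Anxa5 does, differed by 0.03 (adjusted p = 0.918). Anxa3 and Anxa11 differed by -0.01 and -0.10 (adjusted p = 0.979 and 0.748).

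Differentiation moved most of the 10 genes, and it moved them in both directions. In control cells, Anxa3, Anxa2, Anxa1, Anxa5 and S100a11 fell and Anxa6 and Anxa7 rose from GM to DM3 (limma, adjusted p under 0.05), while Anxa4, Anxa11 and S100a10 did not pass. In tKO cells the same 7 genes passed in the same directions, and S100a10 fell as well. Of all genes, 38.3% fell and 23.2% rose in control cells, and 36.0% fell and 24.9% rose in tKO cells, so 5 and 6 falls and 2 and 2 rises among 10 are to be read against a background of wide change. GM and DM3 did not overlap for 7 of the 10 in control cells (64.4% of all genes) and for 6 in tKO cells (49.1%). The median change of the 10 was -0.32 in control and -0.50 in tKO cells, beside -0.15 and -0.12 over all tested genes.

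The size of the shift over all genes depends on the scaling. Median-of-ratios scaling moved the median of all genes from -0.15 to 0.01 for controls, and from -0.12 to 0.01 for the clones. The share of rises among all called genes went from 37.7% to 50.2% for controls, and from 40.9% to 50.7% for the clones. Under that scaling the fall of S100a11 in control cells (-0.22, adjusted p = 0.184) and that of S100a10 in tKO cells (-0.23, adjusted p = 0.229) were lost. Anxa11 then rose in control cells (0.39, adjusted p = 0.0227). The other differentiation calls of the 10 kept their direction and their side of the threshold.

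**Figure D4:**
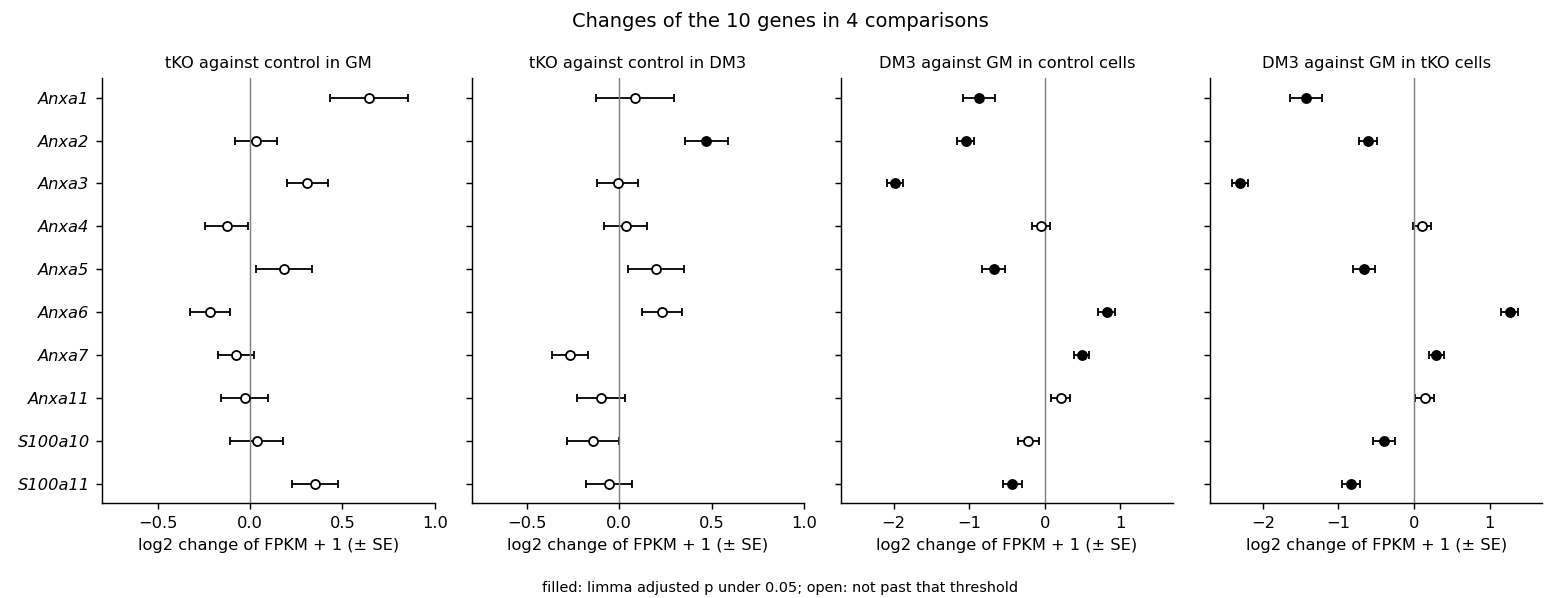
Difference of each of the 10 genes (log2 of FPKM + 1, error bars ± SE from limma) in 4 comparisons, with 4 libraries per group. Filled points passed an adjusted p of 0.05; Anxa2 is the filled point of the genotype panels, and 7 and 8 points are filled in the differentiation panels, whose axes are wider.

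Anxa3, another inhibitor of phospholipase A2, showed the strongest change of the 10. It stood at 262 and 276 FPKM in control GM population 1 and at 295 and 305 in population 2, and at 68.1, 75.1, 69.4 and 72.0 FPKM in the corresponding DM3 libraries. The level in DM3 was 0.250 of that in GM in control cells, a change of -1.98 ± 0.11 (log2, SE; limma, adjusted p = 1.23e-09). In the clones it went from 286, 374, 350 and 411 FPKM to 64.1, 78.8, 72.6 and 67.9 FPKM, a change of -2.30 (adjusted p = 1.97e-10). GM and DM3 were far apart in both genotypes, and the DM3 levels of the genotypes overlapped.

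Anxa2 in control cells fell to 0.482 of its GM level (-1.05 ± 0.12, log2, SE; limma, adjusted p = 1.14e-06). In the clones it fell to 0.661 of it (-0.61, adjusted p = 0.000249). Anxa1 fell to 0.545 of its GM level in control cells (-0.87, adjusted p = 0.00194) and to 0.370 in tKO cells (-1.43, adjusted p = 2.21e-05). Its call in control cells was lost without population 2 (-0.72, adjusted p = 0.106). S100a11 fell to 0.741 in control cells (-0.43, adjusted p = 0.00664) and to 0.561 in tKO cells (-0.84, adjusted p = 2.34e-05). Its call in control cells was lost without either population (adjusted p = 0.0602 and 0.118).

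Anxa5 went from 205 to 221 FPKM in control GM to 109 to 160 FPKM in control DM3 (-0.68, adjusted p = 0.00102). In the clones it went from 223 to 265 FPKM to 111 to 178 FPKM (-0.66, adjusted p = 0.00125), a call that was lost without clone 2 (-0.40, adjusted p = 0.0828). In control DM3 its levels were split by culture, with 109 and 114 FPKM in culture 1 and 160 and 156 FPKM in culture 2. S100a10 changed by -0.22 in control cells (adjusted p = 0.193) and fell by 0.40 on the log2 scale in tKO cells (adjusted p = 0.0231). The fall in tKO cells leaned on clone 2, without which it was -0.22 (adjusted p = 0.381). It was also lost without control population 2 (adjusted p = 0.0578), without culture 1 of clone 1 in GM (0.0715), without culture 1 of clone 2 in DM3 (0.0829), or with only the tKO libraries (0.064).

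Anxa6 rose the most. It stood at 170, 169, 146 and 148 FPKM in control GM and at 308, 252, 295 and 265 FPKM in control DM3, with cultures 1 and 2 of population 1 first. The ratio of means was 1.77 (0.82 ± 0.11, log2, SE; limma, adjusted p = 9.43e-06). The clones went from 155, 113, 143 and 135 FPKM to 351, 334, 324 and 304 FPKM, a ratio of 2.40 (1.27, adjusted p = 8.99e-08). In both genotypes every DM3 library lay above every GM library.

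Anxa7 rose from 39.4 to 41.8 FPKM in control GM to 54.6 to 60.0 FPKM in control DM3 (0.49, adjusted p = 0.000406). In tKO cells it went from 34.3 to 43.5 FPKM to 41.9 to 52.8 FPKM, with overlap (0.30, adjusted p = 0.0146). The rise was 0.56 within culture 1 and 0.04, with overlap, within culture 2, the culture with the lower summed myotube level in tKO DM3 (237 and 312 against 942 and 971 FPKM), whose part in the result was not tested. That call was lost without clone 1 (adjusted p = 0.0629), without clone 2 (0.0659), without culture 1 of clone 1 in GM (0.0545) or with only the tKO libraries (0.0834). Anxa4, an annexin best known from epithelia, stayed between 58.3 and 87.1 FPKM in all 16 libraries. Its changes were -0.05 in control cells (adjusted p = 0.722, and 0.15 with median-of-ratios scaling) and 0.11 in tKO cells (adjusted p = 0.435). The clones went opposite ways: without clone 2 the change was 0.42 and passed (adjusted p = 0.0192), and without clone 1 it was -0.20 (adjusted p = 0.181). Anxa11, a partner of the calcium sensor ALG-2, stayed between 5.50 and 9.14 FPKM, with changes of 0.21 and 0.14 (adjusted p = 0.165 and 0.361).

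Although the change with differentiation looked different in the 2 genotypes for several genes, the interaction passed for none of the 10, against 0.254% of all genes (30 of 11832). Voom called 0 of the 10 too, and 3 had an unadjusted p under 0.05 with limma (1278 of 11832 genes did). The largest of the 10 in size was Anxa1 at -0.56 (adjusted p = 0.517). Anxa6 stood at 0.45 (adjusted p = 0.294), Anxa2 at 0.44 (0.324) and S100a11 at -0.41 (0.409).

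Pearson's r of log2(FPKM + 1) with Anxa2 was computed over the 16 libraries for 11831 other genes, as a description of libraries that share 4 groups and 2 stages. The highest values were those of Capg (0.975), Tssc1 (0.974), Tubb6 (0.972), Myg1 (0.971) and 2700062C07Rik (0.968). Capg, an actin filament capping protein, stood at 256 to 311 FPKM in growing controls and 281 to 305 in growing clones, and after differentiation at 97.4 to 118 in controls and 123 to 181 in the clones. Its tKO DM3 range, like that of Anxa2, lay above the control DM3 range and below both GM ranges. Among the 10 genes, Anxa3 came nearest to Anxa2 (r = 0.882, rank 606). S100a10 had an r of 0.585 and rank 4221, and Anxa7 an r of -0.845.

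The genes around the 10 were read from lists of other annexins, other S100 genes, membrane repair and vesicle partners, the plasminogen system, and receptors, ligands and enzymes of annexins. Of the 4 other annexins, Anxa8 and Anxa9 were tested. Neither passed between genotypes. Anxa8 stood at 148 to 322 FPKM in control GM and at 10.7 to 20.2 FPKM in control DM3 (-3.78, adjusted p = 2.95e-07). In tKO cells it went from 107 to 432 FPKM to 12.8 to 17.3 FPKM (-3.87, adjusted p = 2.11e-07). On this scale none of the 8 annexins above fell as far in either genotype. Anxa9 fell in control cells (-0.73, adjusted p = 0.00149, lost without population 2 at 0.106) and changed by -0.39 in tKO cells (adjusted p = 0.0585).

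Of 14 other S100 genes, 7 were tested, and none passed between genotypes in either stage. In control cells 2 rose and 2 fell with differentiation, and in tKO cells 2 rose and 3 fell. S100a1, a regulator of calcium handling in striated muscle, rose from 32.5 ± 4.57 to 102 ± 24.3 FPKM in control cells (SD, n = 4; 1.60, limma, adjusted p = 5.19e-07). In tKO cells it rose from 38.7 ± 1.07 to 93.1 ± 16.5 FPKM (1.23, adjusted p = 7.96e-06). S100a3 fell by 0.89 on the log2 scale in control cells and by 1.51 in tKO cells (adjusted p = 0.00468 and 5.26e-05). The control call was lost without population 1 (adjusted p = 0.0551) or population 2 (0.0811).

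Of 21 membrane repair and vesicle genes, 20 were tested. Trim72 (MG53), which nucleates the repair patch in muscle, was the one to pass between genotypes in DM3. It stood at 5.11 and 7.12 FPKM in control population 1, 5.01 and 4.91 in population 2, 2.19 and 0.534 in clone 1, and 1.71 and 1.14 in clone 2. The tKO libraries were all below the controls, with a difference of -1.49 ± 0.18 (log2, SE; limma, adjusted p = 0.000112) that passed in every setting run. It is also the gene of this list whose interaction passed (-1.54, adjusted p = 0.0193, lost in 12 of 29 other settings). In tKO DM3 its highest levels were those of culture 1, which also had the higher summed myotube level (942 and 971 FPKM). Control DM3 libraries had 550 to 971 FPKM in that sum, and its part in the result for Trim72 was not tested.

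In GM, Capn3, a muscle calpain, was lower in tKO cells (1.10 ± 0.388 against 2.17 ± 0.209 FPKM, SD, n = 4; -0.61, limma, adjusted p = 0.026). That call was lost without clone 1 (-0.41, adjusted p = 0.221), without either control population, with only the GM libraries (0.0579), with the mean of each population or clone as the unit (0.16), and in leaving out any of 6 single GM libraries: all 4 controls and both cultures of clone 1 (adjusted p from 0.0554 to 0.102). With differentiation, 5 genes of the list rose and 8 fell in control cells, and 5 rose and 9 fell in tKO cells. Trim72 rose by 2.58 on the log2 scale in control cells, and Ahnak2, a giant scaffold related to the annexin A2 partner Ahnak, fell by 2.39 (adjusted p = 9.37e-09 and 6.93e-06). Trim72 had only 0.023 to 0.149 FPKM (2 to 12 fragments) in control GM, so the size of its rise depends on the pseudocount of 1. It was 2.44 to 6.27 over the other settings. In tKO cells Ahnak2 fell by 1.99 and Capn3 rose by 1.36 (adjusted p = 4.18e-05 and 2.99e-07). Capn3 rose in control cells as well (0.91, limma, adjusted p = 1.98e-05), and so did Trim72 in tKO cells (1.04, adjusted p = 0.000102).

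Of 8 genes of the plasminogen system, 7 were tested. Serpine2, an inhibitor of plasminogen activators, was lower in the clones at GM and at DM3. It had 102 to 124 fragments in control GM and 149 to 397 in control DM3, and 0 to 2 fragments in each of the 8 tKO libraries, which is under the detection floor of 3 fragments. The difference was -1.05 in GM and -1.31 in DM3 (limma, adjusted p = 2.66e-05 and 1.38e-06), sizes that the pseudocount of 1 sets for so low a gene. The activator Plat rose with differentiation in control (1.55) and tKO cells (1.94), and the receptor Plaur fell (-1.10 and -2.33), all with adjusted p under 0.05. The control call of Plaur was lost in 7 settings: no filter (0.0557), median-of-ratios scaling (0.0739), without control population 1 (0.159) or 2 (0.212), without culture 2 of population 2 in GM (0.0604), and without culture 1 of population 1 (0.0541) or culture 2 of population 2 (0.0638) in DM3. In tKO GM, Plaur stood at 48.4 and 200 FPKM in clone 1 and at 38.8 and 114 in clone 2, with culture 2 the higher in both, above 27.9 to 40.2 FPKM in controls save for 1 library (1.27, adjusted p = 0.11).

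Of 11 receptors, ligands and enzymes, 7 were tested. Sri (sorcin), a calcium-binding partner of annexin A7, was higher in tKO DM3. It stood at 13.1 and 18.9 FPKM in control population 1, 17.2 and 17.9 in population 2, 30.2 and 37.1 in clone 1, and 33.3 and 39.6 in clone 2. All tKO libraries were above all controls, by 1.03 ± 0.13 (log2, SE; limma, adjusted p = 0.000119), and the call held in every setting run. In GM the levels overlapped (36.6 to 41.2 and 31.4 to 44.0 FPKM), and the interaction passed (1.10, adjusted p = 0.018, lost in 7 of 30 other settings). In control cells Sri fell with differentiation (-1.20, adjusted p = 6.57e-07), and in tKO cells it changed by -0.10 (adjusted p = 0.507).

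The Sri 3′ UTR of 1820 bases held ACATTCCA at bases 30 and 1599, and both stretches are shown because Sri had the same form of match as Anxa2 (capitals, GRCm38). Src, a kinase that phosphorylates annexin A2, was the other gene of these lists with ACATTCCA, and it differed by 0.27 in DM3 (adjusted p = 0.391). Anxa9, Vps4b, Pla2g4a and Prkca held ACATTCC without the last A, and Myof and Dlc1 held CATTCCA without the first. None of these shorter-match genes passed between genotypes at either stage.
Sri, first match (chr5:8067571-8067600, plus strand): actgtctgaatatattcaACATTCCAactg
Sri, second match (chr5:8069140-8069169, plus strand): ttacaactggtgaaataaACATTCCAtaag
Src (chr2:157471734-157471763, plus strand): gcagggcctggggatcccACATTCCAtgcc

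Prkca, a calcium-dependent protein kinase C, fell with differentiation in both genotypes (-0.57 and -0.66, adjusted p = 0.01 and 0.00353). The control call was lost without population 1 (-0.48, adjusted p = 0.183) or population 2 (-0.65, 0.0823). Pla2g4a, the cytosolic phospholipase A2, fell by 0.56 on the log2 scale in tKO cells (adjusted p = 0.00253).

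**Figure D5:**
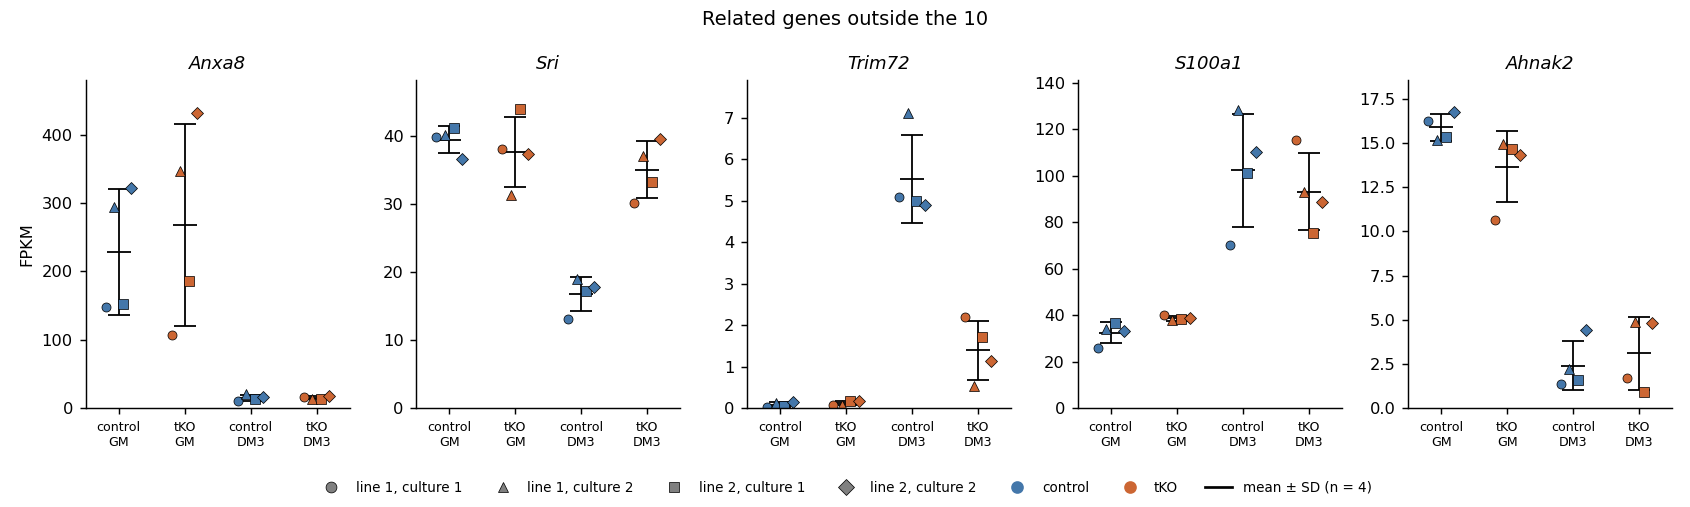
mRNA level (FPKM, linear axes from 0) of 5 related genes in 16 libraries, by group, with the mean ± SD of 4 libraries. Sri in tKO DM3 (30.2 to 39.6 FPKM) lies near its GM levels while control DM3 lies at 13.1 to 18.9 FPKM, and Trim72 is lower in tKO DM3 than in control DM3.

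The positions, as the table lists them and read as GRCm38, were chr9:69453620-69491795 for Anxa2 (ENSMUSG00000032231), chr19:20373428-20390944 for Anxa1, chr5:96793385-96845968 for Anxa3, chr6:86736840-86793584 for Anxa4 and chr3:36448925-36475843 for Anxa5. Anxa6 lay at chr11:54979108-55033445, Anxa7 at chr14:20455261-20480133 and Anxa11 at chr14:25842156-25886804. S100a10 (ENSMUSG00000041959, chr3:93555080-93564643) and S100a11 (chr3:93520488-93526287) are neighbours on chromosome 3. The gene length behind the FPKM of Anxa2 was 2280 bases, that of a transcript with a retained intron, while its longest coding transcript has 1447, which lowers its level against other genes but leaves its comparisons between libraries as they are. The lengths of Anxa4 (2623 against 2030 coding) and Anxa11 (2733 against 2394) were likewise those of transcripts not annotated as protein coding. Antisense Gm16144 overlaps Anxa2 with at most 70 fragments, against 18705 or more for Anxa2, and Gm9872 overlaps Anxa11 with at most 17 against 424 or more.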

How the data were processed

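The deposited file holds FPKM values (fragments per kilobase of gene, scaled to the library's total) that the authors computed for each of the 16 libraries, with no pooling. Poly(A)-enriched RNA was sequenced on an Illumina HiSeq instrument, per the labels' protocols. STAR, DESeq and build mm10 are named, without versions or roles, per the submitters' processing notes. The annotation release and the use of strand in counting are not given in the sources used here, so overlapping genes and copies such as pseudogenes are uncertain.

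Groups came from the sample titles, and columns were matched through each sample's description. Tests used log2(FPKM + 1), a scale that understates changes of low genes, for the 11832 genes whose FPKM averaged 0.5 or more. limma 3.58.1 (R 4.3.3, trend and robust moderation) was given a model of group means on all 16 libraries, with Benjamini-Hochberg adjustment over all tested genes and calls at an adjusted p under 0.05. The steps were tested on simulated libraries that were independent, with no lines or cultures and with larger changes than that of Anxa2. That run checks the code and not the calls given here. FPKM times gene length gave whole fragment numbers within 0.05 fragment and these gave the depth and an alternative fit with voom. Each of the 10 genes had 424 fragments or more in every library, and the detection floor was 3 fragments, which covers counting error only. Sequences were read from RefSeq (GRCm38.p6) and GENCODE M21 with Python 3.11.15.

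All 10 genes are described. From each list the called genes with the largest change, at most 2 per comparison, are named, and genes like Anxa2 are the 5 with the highest Pearson r. A few others were named after their values were seen (S100a10 and Anxa7 in that ranking, Plaur in GM, Src). The differentiation changes of Pla2g4a and Capn3 in control cells and of Trim72 in tKO cells were added likewise. List genes that hold ACATTCC or CATTCCA were also named. The members and lists were chosen with earlier results of these data known. Alternatives were other pseudocounts, filters, scalings and moderation, line averages or random effects, a replicate block, and leaving out libraries or lines. The coding length behind FPKM was added after seeing the data.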

Additional observations from a re-analysis of the deposited data

Results flagged for a closer look

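Of 92 combinations of gene and group checked for 1 library standing apart (10 genes and 13 related genes in groups of 4), 4 did so, where chance gives about 1 in 20, and none of the 4 was among the 40 combinations of the 10 genes. Ahnak2 stood at 10.7 FPKM in culture 1 of clone 1 in GM, with the next library at 14.3. Prkca stood at 6.54 FPKM in culture 2 of control population 2 in DM3, with the next at 5.09. Serpine2 stood at 0.0191 FPKM (2 fragments) in culture 2 of clone 2 in GM and at 0 in the other 3 libraries, all under the floor of 3 fragments. Trim72 stood at 7.12 FPKM in culture 2 of control population 1 in DM3, with the next at 5.11. The genotype difference changed with stage for Sri (interaction 1.10, adjusted p = 0.018) and Trim72 (-1.54, adjusted p = 0.0193) by limma's interaction test. These calls were lost in 7 of 30 other settings for Sri and 12 of 29 for Trim72. With line averages as units the adjusted p was 0.156 for each.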

How the results depend on the processing

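Of 50 results for the 10 genes (10 genes in 5 comparisons), 26 kept direction and side of the threshold in every one of up to 32 settings, and 34 never changed direction. The 16 called results never changed direction, and 10 of them stayed called throughout. The number of the 10 genes called between genotypes in GM was 1 (Anxa1) without clone 2 and 0 to 1 in leaving out single libraries. In DM3 it was 0 with median-of-ratios scaling, only the compared libraries, averages per line, without control population 1, without control population 2 and without clone 1, and 0 to 1 in leaving out single libraries. The cause was not tested.

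Anxa4 in tKO differentiation became called without clone 2 (0.418, adjusted p = 0.0192). Every change of direction was in a result that was not called. With TPM, Anxa2 and S100a10 in GM were -0.0234 and -0.0201, and Anxa3 in DM3 was 0.00922. With median-of-ratios scaling Anxa4 in control cells was 0.153 and the interaction of Anxa5 was -0.0211. Without clone 1, Anxa4 was 0.0532 in GM, -0.0933 in DM3, -0.198 in tKO differentiation and -0.146 in the interaction, and Anxa5 was -0.00195 in DM3 and -0.246 in the interaction. Without clone 2, Anxa11 was 0.114 in GM and 0.00437 in DM3, S100a10 was 0.00311 and S100a11 0.054 in DM3. Without control population 1, Anxa11 was 0.0479 in GM. Without control population 2, Anxa11 was 0.00533 in DM3 and 0.112 in the interaction, S100a11 was 0.011 in DM3 and Anxa5 was -0.00461 in the interaction. In leaving out single libraries the ranges were -0.022 to 0.0793 for Anxa2, -0.106 to 0.0456 for Anxa11 and -0.0236 to 0.113 for S100a10 in GM. They were -0.0959 to 0.222 for Anxa1, -0.0612 to 0.0362 for Anxa3 and -0.0387 to 0.0776 for Anxa4 in DM3, and -0.0752 to 0.169 for Anxa5 and -0.157 to 0.00557 for Anxa11 in the interaction.

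The culture numbers were not taken as pairing, since the labels state no shared batch and not every pair of same-numbered cultures deviated together. Of 16 pairs across the genotypes, 12 had r over 0.1 (mean 0.218, -0.224 to 0.558). With the culture number as replicate block, Anxa2 in DM3 was 0.472 (limma, adjusted p = 0.0288). The counts of the 10 genes called were then 0, 1, 7, 8 and 0 in the 5 comparisons, as without it. Over all genes the calls between genotypes rose with the block, from 244 to 336 in GM and from 400 to 523 in DM3. Whether the culture numbers mark a shared batch was not tested.

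Over all genes the counts moved more. They were 244 as reported and 33 to 1315 without 1 line in GM, 400 and 49 to 1136 in DM3, and 30 and 0 to 101 in the interaction. Voom gave 205, 404 and 20. Depth limits Serpine2, at 0 to 2 fragments in the clones, and not the 10 genes, at 424 fragments or more.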
